A study of Mus musculus with 12 samples.

Results

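The unfolded protein response (UPR) of the endoplasmic reticulum (ER) was followed in mouse liver through 10 genes, namely Atf6, Ern1, Xbp1, Herpud1, Edem1, Pdia4, Pdia6, Sdf2l1, Creld2 and Manf. They were taken by symbol from the 55414 Ensembl genes of the deposited count table, and all 10 were among the 13857 genes with enough reads to be tested. Bulk RNAseq of whole liver had been made from 12 female C57BL/6J mice of 8 to 12 weeks (genotype C57Bl/6J in the sample records), with 3 mice in each of 4 groups. The NaCl/PBS mice received 0.9% NaCl and, 6 h later, PBS. The NaCl/DEX mice received 0.9% NaCl and then 10 mg/kg dexamethasone (DEX), a synthetic glucocorticoid. The FeSO4/PBS mice received 300 mg/kg iron sulfate (FeSO4) and then PBS, and the FeSO4/DEX mice received 300 mg/kg FeSO4 and then 10 mg/kg DEX. Every liver was taken 2 h after the second injection, 8 h after the first. The genotype was the same in all groups, and each library came from a separate mouse.

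The UPR is the response of a cell to unfolded proteins in the ER. Of its sensors in the ER membrane, IRE1 cuts an intron out of the Xbp1 mRNA, ATF6 is cleaved in the Golgi to free a transcription factor, and PERK phosphorylates the initiation factor eIF2α, which favors translation of ATF4. XBP1 and ATF6 drive genes for chaperones, disulfide isomerases and ER-associated degradation (ERAD). Hepatocytes secrete most plasma proteins and depend on this machinery under normal load.

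The sequences below show an annotated intron of Xbp1 and promoter stretches that match known elements of the UPR by their letters alone. The first is the region of Xbp1 that holds the intron cut out by IRE1. Capitals mark the 26 bases at chr11:5474278-5474303 of GRCm39 that GENCODE annotates as this intron in 1 of 24 Xbp1 transcripts. Since the base at the start of the capitals also follows their end, an intron placed 1 base further 3′ leaves the same spliced mRNA, and the capitals give the annotation rather than the cut sites of IRE1. The RNAseq counts sum reads of the spliced and the unspliced mRNA of Xbp1, so that IRE1 activity cannot be read from them.
Xbp1, chr11:5474258-5474323, plus strand: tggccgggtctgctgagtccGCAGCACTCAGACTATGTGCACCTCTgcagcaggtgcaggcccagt

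The others are the ER stress elements found near the annotated starts of 4 of the 10 genes, with 15 bases on either side. Promoter windows ran from 250 bases before to 50 bases after the start of the canonical transcript and were searched on both strands. The ER stress element (ERSE) was taken as CCAAT, any 9 bases and CCACG, and the related ERSE-II as ATTGG, any base and CCACG. Capitals mark the matched element, and Manf is printed on the minus strand, on which it is transcribed.
Herpud1, ERSE-II, chr8:95112990-95113030, plus strand: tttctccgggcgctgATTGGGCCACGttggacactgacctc
Manf, ERSE-II, chr9:106769223-106769263, minus strand: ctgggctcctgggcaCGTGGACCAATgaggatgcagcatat
Creld2, ERSE, chr15:88703708-88703756, plus strand: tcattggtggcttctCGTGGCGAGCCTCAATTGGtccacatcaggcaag
Pdia6, ERSE, chr12:17316477-17316525, plus strand: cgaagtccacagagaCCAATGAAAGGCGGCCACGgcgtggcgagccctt

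In Herpud1 the element begins 32 bases before the start, in Pdia6 41, in Manf 70 and in Creld2 90 bases before it, and in Manf and Creld2 it reads in the opposite orientation. ERSE-II thus stood in 2 of the 10 promoters and ERSE in 2 others. Of the 13818 promoters read for all tested genes, 15 held ERSE (0.109%) and 13 held ERSE-II (0.0941%). The UPR element core TGACGTG was found in 0 of the 10 windows and in 2.48% of all promoters, and the ATF4 site TGATG, any base and AAT in 0 windows and 0.579%. The elements were not particular to the 10 genes. Of 19 other ER chaperones and folding enzymes, 31.6% held ERSE, 10.5% ERSE-II, 10.5% the UPR element core and 5.26% the ATF4 site. Of 17 other ERAD genes these were 11.8%, 0%, 11.8% and 0%. For the other 6 of the 10 genes, 0 matches say only that these exact letters do not stand in the window. A match is a description of the sequence and no evidence of binding.

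The 12 libraries held 16335651 to 23827340 reads on genes (median 19602514). Normalized counts below were scaled by edgeR's TMM factors, LFC is the log2 fold change of edgeR's quasi-likelihood model, and FDR its Benjamini-Hochberg adjusted p, with genes called at 0.05 or less. With 3 mice against 3, an exact permutation test of a single gene cannot give a p below 0.1, so single genes rest on the model of all genes. The hepatocyte markers were all well counted, and their 8 genes summed to 115000 to 167000 CPM (counts scaled to a fixed library total), with 4 of 8 higher after FeSO4. The 9 markers of Kupffer cells and macrophages summed to 462 to 540 CPM in NaCl/PBS and 252 to 293 CPM in FeSO4/PBS mice, with 8 of 9 called lower. The 8 neutrophil markers summed to 5.85 to 15.1 CPM and 39.2 to 47.3 CPM, with 5 of 6 tested called higher, and their part in the results below was not tested. These marker calls stand beside 27.2% of all tested genes called higher and 27.3% called lower in FeSO4/PBS against NaCl/PBS mice. In bulk liver, fewer cells of a type and less RNA per cell cannot be told apart.

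Levels were first compared per length, as RPKM, that is reads scaled by library total and by the length of the canonical transcript. In NaCl/PBS mice Xbp1 (111 ± 24.8 RPKM, SD, n = 3) and Herpud1 (109 ± 6.14) were the most abundant of the 10 mRNAs and did not differ beyond the spread between mice. Pdia6 followed with 64.5 ± 4.06 RPKM, and then Manf (33.6 ± 6.08), Edem1 (33.5 ± 2.73) and Pdia4 (32.2 ± 1.99), whose levels lay within their spread of each other. The level of Manf is uncertain, since its annotated transcripts differ much in length. The levels of the other genes also rest on the length of the canonical transcript alone. Creld2 (19.5 ± 4.85 RPKM) and Sdf2l1 (16.8 ± 1.35) overlapped as well. The mRNAs of the sensors were the least abundant, with 13 ± 0.968 RPKM for Atf6 and 9.31 ± 0.577 RPKM for Ern1. The order was led by Herpud1 with 233 ± 9.9 RPKM in NaCl/DEX mice, where Xbp1 had 72.9 ± 6.71, and by Xbp1 with 201 ± 69.8 RPKM in FeSO4/PBS mice, where Herpud1 had 159 ± 17.4.

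After FeSO4 alone the 10 genes moved apart. Compared with NaCl/PBS mice, Xbp1 rose 1.81-fold, Herpud1 1.46-fold and Atf6 1.38-fold, and Pdia4 fell to 0.679 of its level. The remaining 6 were not called, among them the foldase Pdia6, which lay at 0.971 of its control level. In all, 3 of 10 were higher and 1 of 10 was lower, where 27.2% and 27.3% of all tested genes were called in those directions, so that the share of the 10 genes lay near that of all genes. Their median LFC was 0.2, against -0.02 for all tested genes. When libraries were scaled by size alone, the median of all genes moved to -0.34, and 1 of the 10 genes was higher and 5 were lower. The plot of normalized counts by mouse shows all 10 genes.

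**Figure D1:**
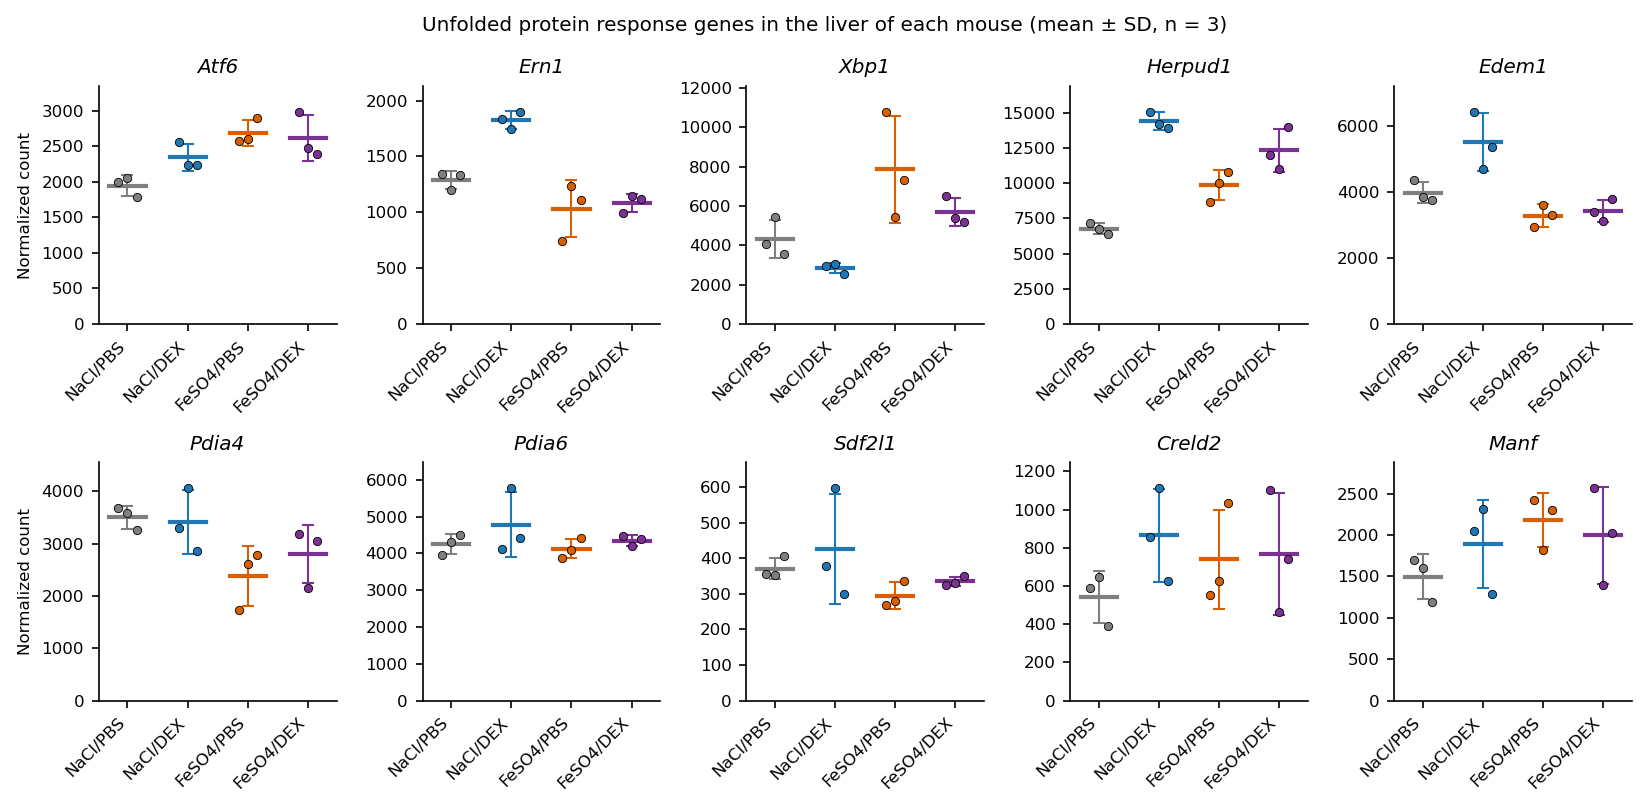
Normalized counts (vertical axis, from 0) of the 10 UPR genes in each of 12 mice by group, with 1 point per mouse and the mean ± SD of 3 mice. Herpud1 stands above its NaCl/PBS level in the other 3 groups, Ern1 and Edem1 are highest in NaCl/DEX mice, and Xbp1 is highest in FeSO4/PBS mice.

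Among the regulators, Xbp1 (ENSMUSG00000020484, chromosome 11 from 5470606 to 5483027 of GRCm39), the transcription factor made from the mRNA shown above, had 4075, 5416 and 3539 normalized counts in the 3 NaCl/PBS mice. In the FeSO4/PBS mice Xbp1 had 10800, 5426 and 7338. Every FeSO4/PBS mouse lay above every NaCl/PBS mouse, although the lowest of the former and the highest of the latter nearly touched and FeSO4/PBS mouse 1 stood well above the others. The LFC of Xbp1 was 0.85 (SE 0.21, FDR 0.004), 0.56 (FDR 0.019) without FeSO4/PBS mouse 1 and 0.53 (FDR 0.045) with scaling by library size alone. Xbp1 overlaps Ccdc117 on the opposite strand, which had at most 597 counts in any library and an LFC of -0.67 (FDR 0.001).

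Atf6 (ENSMUSG00000026663, chromosome 1 from 170532026 to 170696208), the membrane-bound transcription factor, had 2005, 2056 and 1784 normalized counts in NaCl/PBS mice and 2571, 2598 and 2901 in FeSO4/PBS mice. The groups of Atf6 did not overlap, and mice of 1 group lay close together. Its LFC was 0.47 (SE 0.12, FDR 0.0036), but 0.15 (FDR 0.33) with scaling by library size alone, which ended the call. Ern1 (ENSMUSG00000020715, chromosome 11 from 106283818 to 106378686), which encodes IRE1α, had 1344, 1200 and 1331 normalized counts in NaCl/PBS mice. In FeSO4/PBS mice Ern1 had 744.9, 1236 and 1110, so that 1 mouse stood low and another reached the control range. The LFC of Ern1 was -0.33 (SE 0.15, FDR 0.08), and it was called at -0.64 (FDR 0.003) with scaling by library size alone.

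Herpud1 (ENSMUSG00000031770, chromosome 8 from 95113022 to 95123141), a ubiquitin-like ER membrane protein of the ERAD complex, had 7139, 6741 and 6381 normalized counts in NaCl/PBS mice. After FeSO4 it had 8685, 10020 and 10800, all above the controls. The LFC of Herpud1 was 0.54 (SE 0.12, FDR 0.0018), and 0.23 (FDR 0.14) with scaling by library size alone, which ended the call. Edem1 (ENSMUSG00000030104, chromosome 6 from 108805457 to 108838955), which hands misfolded glycoproteins to ERAD, had 4349, 3850 and 3742 in NaCl/PBS mice and 2943, 3612 and 3301 in FeSO4/PBS mice. These groups of Edem1 did not overlap, yet the LFC of -0.28 (SE 0.13) did not pass (FDR 0.091). With scaling by library size alone it was -0.59 (FDR 0.002).

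Of the disulfide isomerases, which form and rearrange disulfide bonds in the ER, Pdia4 (ENSMUSG00000025823, chromosome 6 from 47770077 to 47790462) had 3678, 3579 and 3263 normalized counts in NaCl/PBS mice. In FeSO4/PBS mice Pdia4 had 1734, 2618 and 2790. All FeSO4/PBS mice lay below the controls, and mouse 1, the mouse with the highest Xbp1 and the lowest Ern1, was again the farthest from them. The LFC of Pdia4 was -0.56 (SE 0.19, FDR 0.022). It was -0.37 (FDR 0.085) without FeSO4/PBS mouse 1, and neither did it pass without NaCl/PBS mouse 1 (FDR 0.064) or 2 (FDR 0.053). Pdia6 (ENSMUSG00000020571, chromosome 12 from 17316533 to 17335913) had 3964 to 4491 normalized counts in NaCl/PBS and 3877 to 4415 in FeSO4/PBS mice. Its LFC was -0.04 with a 95% interval of -0.31 to 0.23, and -0.36 (FDR 0.036) with scaling by library size alone.

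The last 3 genes encode small proteins of the ER lumen. Manf (ENSMUSG00000032575, chromosome 9 from 106715511 to 106769727), a factor that binds the chaperone BiP and can be secreted, had 1695, 1604 and 1188 normalized counts in NaCl/PBS mice and 2425, 1816 and 2305 in FeSO4/PBS mice. The groups of Manf did not overlap, and the LFC was 0.54 (SE 0.23, FDR 0.063). It was called by DESeq2 (LFC 0.57, adjusted p 0.039) and when any of 4 mice was left out, at 0.66 (FDR 0.044) without FeSO4/PBS mouse 2 and at 0.55 without NaCl/DEX mouse 3 (FDR 0.038), FeSO4/DEX mouse 1 (FDR 0.048) or FeSO4/DEX mouse 2 (FDR 0.04). Manf overlaps Rbm15b on the same strand, which had at most 403 counts in any library and an LFC of 0.06 (FDR 0.76), and Dcaf1 on the opposite strand, with 341 to 869 counts and an LFC of -0.17 (FDR 0.24). Dcaf1 rose after DEX in mice without FeSO4 (0.62, FDR 0.0025), and whether the counting used the strand is not given in the sources used here.

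Creld2 (ENSMUSG00000023272, chromosome 15 from 88703795 to 88710890), a secreted and ER-resident protein with disulfide reductase motifs, had 390.2 to 648 normalized counts in NaCl/PBS and 553.4 to 1036 in FeSO4/PBS mice. The groups of Creld2 overlapped, and its LFC was 0.44 with a 95% interval of -0.22 to 1.11 (FDR 0.24). Sdf2l1 (ENSMUSG00000022769, chromosome 16 from 16948002 to 16950252), a partner of ER chaperones of the Hsp40 class, had 351.6 to 404.6 in NaCl/PBS and 267.1 to 336.7 in FeSO4/PBS mice. Its LFC was -0.33 (SE 0.2, FDR 0.17), and -0.65 (FDR 0.017) with scaling by library size alone.

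**Figure D2:**
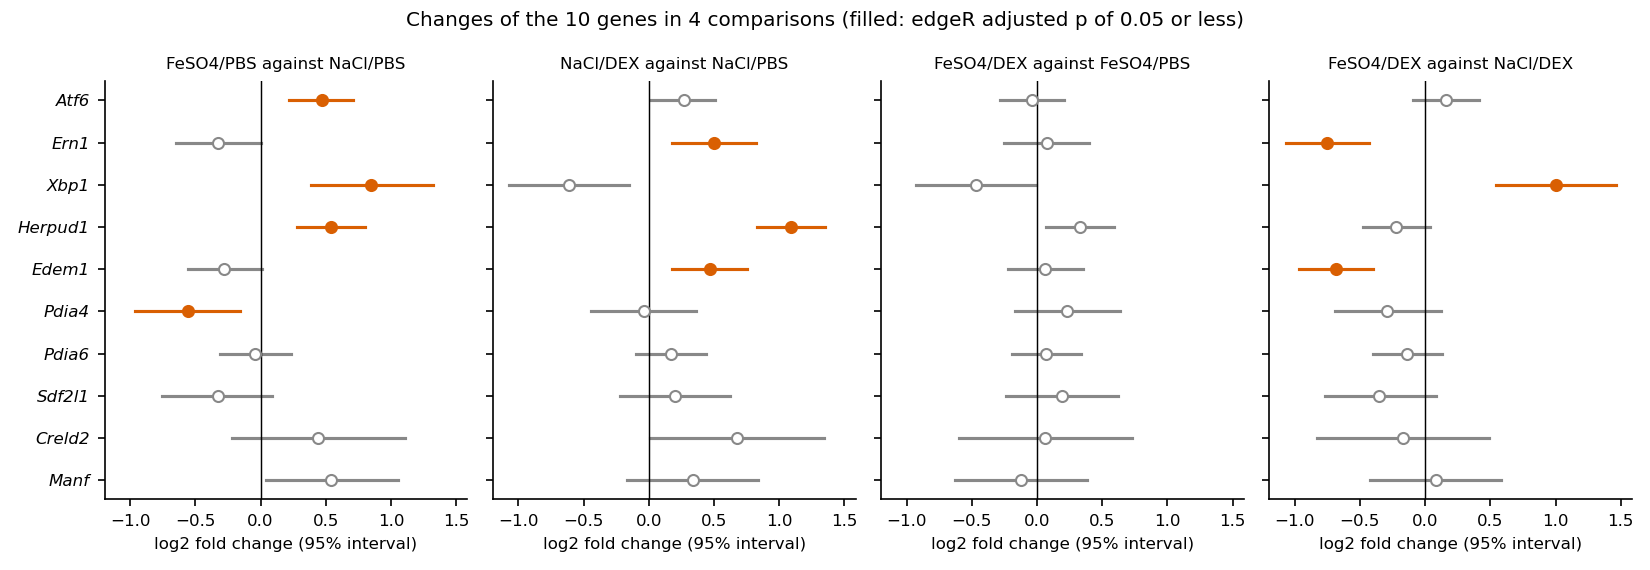
LFC (horizontal axis, log2 scale) of the 10 genes in 4 comparisons with 95% intervals; filled points have an edgeR FDR of 0.05 or less. Xbp1, Atf6 and Herpud1 are filled above 0 and Pdia4 below 0 after FeSO4, and no point is filled for DEX in FeSO4 mice.

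The rest of the pathway was read from lists of genes in the same comparison, FeSO4/PBS against NaCl/PBS. Each count below stands beside the 27.2% of all tested genes that were called higher and the 27.3% called lower. In the list called the PERK arm here, 7 of 14 genes were higher and 0 lower, with a median LFC of 0.95. PERK activity was not measured, and which signal raised these genes was not tested. Atf4, the transcription factor of this arm, rose by an LFC of 1.64 (SE 0.2, FDR 1.5e-05), and Eif2ak3, which encodes PERK, by 0.91 (SE 0.19, FDR 0.00097). The ATF4 target genes Atf3 (5.75, FDR 2.5e-06), Chac1 (3.58, FDR 1.5e-07) and Ppp1r15a (2.5, FDR 1.4e-07) had the largest LFCs of the list. Atf3 varied widely, with 451.6 to 2318 normalized counts in FeSO4/PBS and 15.24 to 41.14 in NaCl/PBS mice. Ddit3, which encodes the proapoptotic factor CHOP, was not called (LFC -0.46, SE 0.32, FDR 0.23), and its normalized counts were 57.04 to 80.56 in NaCl/PBS and 35.71 to 80.64 in FeSO4/PBS mice. Neither were Trib3 (-0.34, FDR 0.26), Asns (1, FDR 0.068), Sesn2, Nupr1, Vldlr and Ppp1r15b of this list. The list had 1 lower gene without NaCl/PBS mouse 2 or FeSO4/PBS mouse 1, and 2 with library size alone.

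Among 19 ER chaperones and folding enzymes other than the 10 genes, 5 were higher (26.3%, near the share of all genes) and 2 lower (median LFC 0.14). Hspa5, which encodes the chaperone BiP, rose by an LFC of 1.05 (SE 0.18, FDR 0.00024), from 11500 to 13700 normalized counts in NaCl/PBS to 24190 to 28350 in FeSO4/PBS mice. The thioredoxin-domain gene Txndc11 (LFC 1.03, FDR 0.00052) and the BiP cofactor Dnajb9 (0.97, FDR 3.8e-05) rose as well. The disulfide isomerase Txndc5 (-0.61, FDR 0.00019) and the disulfide reductase Dnajc10 (-0.49, FDR 0.012) fell. Hsp90b1, the ER member of the Hsp90 family, was not called (0.23, FDR 0.11). With scaling by library size alone this list counted 3 higher and 6 lower, 3 were higher without NaCl/PBS mouse 3, and 1 was lower without NaCl/PBS or FeSO4/PBS mouse 2.

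Of 17 other ERAD genes, 8 were higher and 2 lower (median LFC 0.16). The ubiquitin-conjugating enzymes Ube2g2 (LFC 1.17, FDR 1.2e-06) and Ube2j1 (0.74, FDR 1.6e-05) and the p97 cofactor Nploc4 (0.82, FDR 2.4e-05) led the rises. Derl2 of the ER membrane (-0.51, FDR 0.00034) and the mannosidase Edem3 (-0.44, FDR 0.041) fell, the latter in the direction that its relative Edem1 took without being called. With scaling by library size alone the ERAD list counted 4 higher and 5 lower, and the lower genes numbered 1 when any of 7 mice was left out.

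In the other lists, 4 of 22 tested genes of ER translocation and the early secretory pathway were higher and 2 lower (median LFC 0.02). The KDEL receptor gene Kdelr2, which returns escaped chaperones to the ER, rose by an LFC of 2.01 (SE 0.13, FDR 7.2e-08), followed by the COPII gene Sec24d (0.62, FDR 0.002) and the signal recognition receptor gene Srpra (0.41, FDR 0.0072). The signal peptidase gene Spcs3 (-0.38, FDR 0.017) and Tram1 of the translocon (-0.31, FDR 0.023) fell. With scaling by library size alone this list counted 1 higher and 9 lower, and it had 0 lower without NaCl/PBS mouse 1 and 1 lower without NaCl/PBS or FeSO4/PBS mouse 2.

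The 7 ER-bound bZIP factors and their proteases had 4 higher and 2 lower genes. Creb3l1 (LFC 1.23, FDR 0.007), Creb3l3 (1.21, FDR 5.3e-06) and Creb3l2 (0.97, FDR 5.3e-05) rose, as did the site-2 protease gene Mbtps2 (0.64, FDR 0.00079). Creb3l1 was low, with 21 to 29 counts in NaCl/PBS and 36 to 54 in FeSO4/PBS mice. Atf6b, the relative of Atf6, fell by 1.08 on the log2 scale (SE 0.16, FDR 6.3e-05), from 310.6 to 366.5 normalized counts in NaCl/PBS to 148.5 to 163.3 in FeSO4/PBS mice, while Atf6 itself rose. The site-1 protease gene Mbtps1 fell (-0.28, FDR 0.023). With scaling by library size alone this list also counted 4 higher and 2 lower, and 1 was lower without NaCl/PBS mouse 1 or 3 or FeSO4/PBS mouse 2. Of 8 tested IRE1 partners, 5 were higher and 0 lower, led by the kinase Map3k5 (1.25, FDR 0.00043), Bak1 (0.86, FDR 0.019) and the phosphatase Ptpn1 (0.75, FDR 0.00025). These were 3 higher and 1 lower without FeSO4/PBS mouse 1, and 2 higher and 1 lower with library size alone. Among 6 substrates of IRE1-dependent decay, 1 was higher (Sparc, 0.61, FDR 0.00077) and 0 lower, with 2 higher without FeSO4/PBS mouse 1 and 0 with library size alone.

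**Figure D3:**
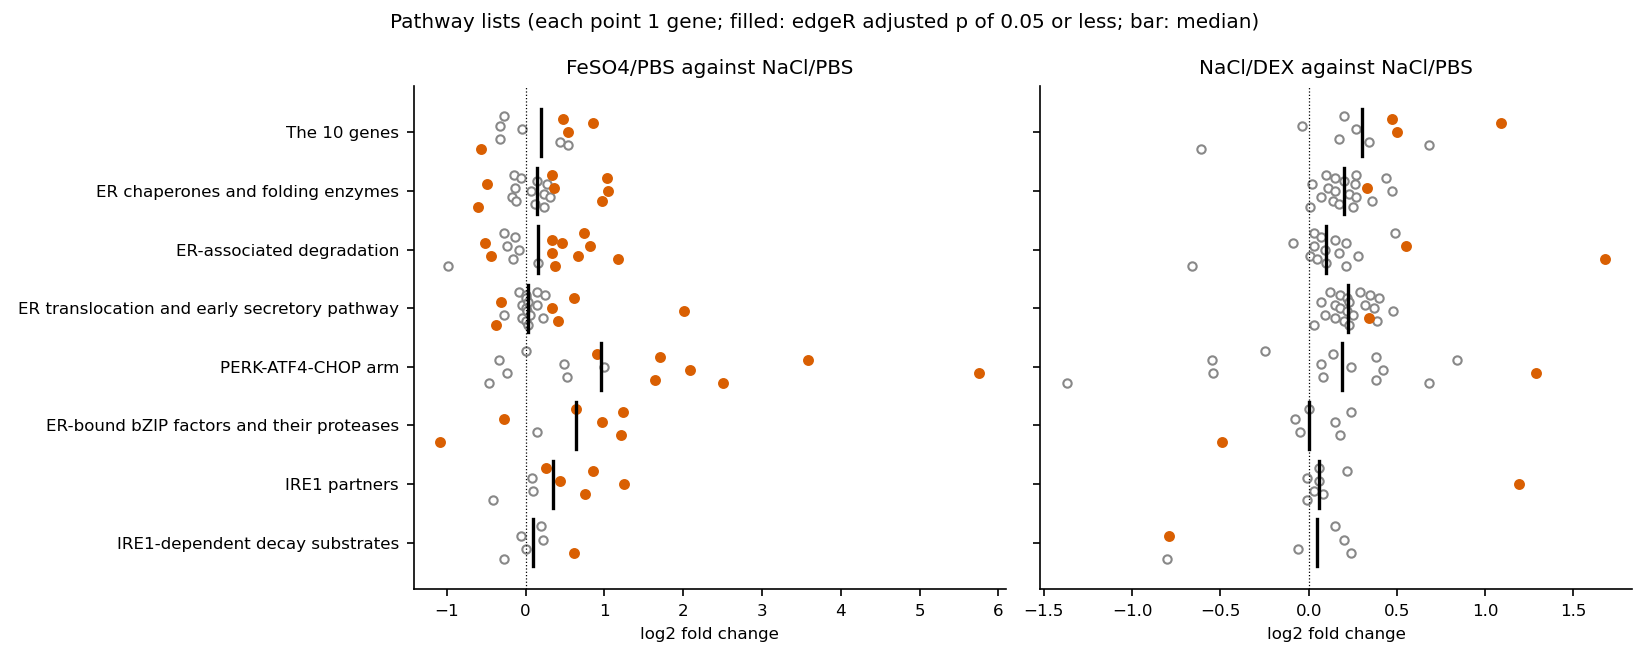
LFC (horizontal axis, log2 scale, own range in each panel) of each tested gene in the 10 genes and 7 further lists, for FeSO4 (left) and for DEX without FeSO4 (right); filled points have an edgeR FDR of 0.05 or less and bars mark medians. After FeSO4 the PERK arm holds the points farthest to the right, with Atf3 at 5.75, and 8 of the 93 points of the further lists are filled after DEX.

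DEX given to NaCl mice was compared with the same NaCl/PBS mice that served as controls of FeSO4, so that the 2 comparisons are not independent. After DEX, Herpud1 rose 2.13-fold, Ern1 1.41-fold and Edem1 1.38-fold, and none of the 10 genes was called lower. This made 3 of 10 higher and 0 of 10 lower, where 6.5% and 7.15% of all tested genes were called. In edgeR 6 of the 10 had an unadjusted p under 0.05, among them Xbp1 with an LFC below 0. Of all 13857 tested genes, 3718 had an unadjusted edgeR p under 0.05 in this comparison. The median LFC of the 10 genes was 0.3, against -0.02 for all tested genes (-0.18 with library size alone, where 1 was higher and 1, Xbp1, was lower).

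Herpud1 had 15080, 14220 and 13890 normalized counts in the 3 NaCl/DEX mice, each far above the NaCl/PBS maximum of 7139. The LFC of Herpud1 was 1.09 (SE 0.12, FDR 4.5e-05), and between 1.06 and 1.14 with any mouse left out. Ern1 had 1836, 1743 and 1902 in NaCl/DEX mice, above all NaCl/PBS mice and the highest of the 4 groups. The LFC of Ern1 was 0.5 (SE 0.15, FDR 0.04). Without any of the 6 mice compared, the FDR of Ern1 was 0.069 to 0.12 and the call was lost, as with library size alone (LFC 0.35, FDR 0.15).

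Edem1 had 6435, 4701 and 5363 normalized counts in NaCl/DEX mice, above all NaCl/PBS mice. Its LFC was 0.47 (SE 0.13, FDR 0.03), but the call was lost without NaCl/PBS mouse 2 (FDR 0.085) or 3 (FDR 0.12), without NaCl/DEX mouse 1 (FDR 0.14) or 3 (FDR 0.071), and with library size alone (LFC 0.31, FDR 0.13). Xbp1 had 2936, 3048 and 2549 in NaCl/DEX mice, below all NaCl/PBS mice. The LFC of Xbp1 was -0.61 (SE 0.21, FDR 0.078), and it passed at -0.59 (FDR 0.022) in a fit of these 6 libraries and at -0.76 (FDR 0.025) with library size alone. The Xbp1 and Ern1 values thus stood on opposite sides of the controls in NaCl/DEX mice, with Xbp1 uncalled.

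For Atf6, whose NaCl/DEX mice had 2236 to 2563 normalized counts, the LFC was 0.27 (SE 0.11, FDR 0.15). Creld2 had 855.5, 1113 and 628.3 in NaCl/DEX mice, which overlapped the controls, and an LFC of 0.68 with a 95% interval of 0.01 to 1.34 (FDR 0.18). Manf (LFC 0.34, FDR 0.4), Sdf2l1 (0.2, FDR 0.57), Pdia6 (0.17, FDR 0.43) and Pdia4 (-0.04, FDR 0.93) overlapped the controls too.

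After DEX in NaCl mice, 6 of the 93 tested genes of the 7 pathway lists were higher (6.45%) and 2 lower (2.15%), beside 6.5% and 7.15% of all tested genes. In ERAD, Ube2g2 rose by an LFC of 1.68 (SE 0.11, FDR 3.8e-07) and Nploc4 by 0.55 (FDR 0.0031), and the other 15 genes were not called. Of 19 chaperones, Txndc5 rose (0.33, FDR 0.043), of 22 genes of translocation and early secretion Sec62 (0.34, FDR 0.019), of 14 PERK arm genes Cebpb (1.29, FDR 0.00012), and of 8 IRE1 partners Map3k5 (1.19, FDR 0.0031). Creb3l2 (-0.49, FDR 0.032) and the IRE1 substrate Pdgfrb (-0.79, FDR 0.019) fell. Pdgfrb was low, with 96 to 152 counts in NaCl/PBS and 47 to 75 in NaCl/DEX mice. Which liver cells its reads came from was not tested. The Txndc5 call was lost without NaCl/PBS mouse 1 or 3, any NaCl/DEX mouse or FeSO4/DEX mouse 1, and that of Sec62 without mouse 1 or 3 of NaCl/PBS or NaCl/DEX, and both with library size alone. Creb3l2 was not called without any of the 3 NaCl/PBS mice, NaCl/DEX mouse 1 or 3 or FeSO4/DEX mouse 3, nor Pdgfrb without NaCl/PBS mouse 1 or 3 or NaCl/DEX mouse 1. Without FeSO4/PBS mouse 1, 4 genes of translocation and early secretion, 2 chaperones and 2 PERK arm genes were higher. Over the 12 fits with 1 mouse left out, these counts were 0 to 4, 0 to 2 and 1 to 2. They differed from the full fit in 7, 8 and 2 of the 12 fits, so that other mice moved them too.

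DEX given to FeSO4 mice was read in FeSO4/DEX against FeSO4/PBS mice, which share no mouse with the DEX comparison in NaCl mice. None of the 10 genes was called, and 0% of all tested genes were called higher and 0% lower. edgeR found 900 of all genes with an unadjusted p under 0.05 and DESeq2 called 11. Of the 10 genes, DESeq2 called 0, and Herpud1 and Xbp1 had an unadjusted edgeR p under 0.05. The 7 pathway lists had 0 called genes as well.

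Herpud1 had 12000, 10990 and 14000 normalized counts in FeSO4/DEX mice, each above the FeSO4/PBS maximum of 10800. The LFC of Herpud1 was 0.33 (SE 0.12, unadjusted p 0.017, FDR 0.73). Xbp1 had 6491, 5387 and 5181 in FeSO4/DEX mice, which overlapped the FeSO4/PBS mice, and an LFC of -0.47 (SE 0.21, unadjusted p 0.047, FDR 0.76), or -0.19 without FeSO4/PBS mouse 1. Ern1 had an LFC of 0.08 (95% interval -0.25 to 0.4) and Edem1 of 0.06 (-0.22 to 0.35). In NaCl mice the LFCs were 0.5 (0.18 to 0.82) for Ern1 and 0.47 (0.18 to 0.75) for Edem1, and for both genes the intervals overlap.

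The difference between the DEX responses was tested as an interaction. It passed for Herpud1 alone among the 10 genes, where 3.2% of all tested genes had a response that was lower and 2.99% a response that was higher in FeSO4 than in NaCl mice. The Herpud1 response was smaller by an LFC of -0.77 in FeSO4 mice (SE 0.17, 95% interval -1.13 to -0.4, FDR 0.016). It stayed between -0.9 and -0.71 with any mouse left out, with an FDR of 0.05 or less each time. The differences for Ern1 (-0.42, SE 0.21, FDR 0.28) and Edem1 (-0.4, SE 0.19, FDR 0.24) did not pass, although Ern1 did without FeSO4/PBS mouse 1 (-0.65, FDR 0.0097). For Xbp1 the difference was 0.14 with a 95% interval of -0.5 to 0.79. Outside the 10 genes, the interaction passed for 2 of 17 ERAD genes, Ube2g2 (-1.75, SE 0.15, FDR 1.8e-05) and Nploc4 (-0.57, SE 0.15, FDR 0.04), and for Cebpb of the PERK arm (-1.1, SE 0.23, FDR 0.011), and for 0 genes of the other lists of the pathway.

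FeSO4/DEX mice were last compared with NaCl/DEX mice, which gives the FeSO4 effect in mice that had all received DEX. Here 1 of 10 genes was higher and 2 of 10 lower, where 22.4% and 20.9% of all tested genes were called, and with library size alone 4 were lower. Xbp1 was 2-fold higher (LFC 1, SE 0.22, FDR 0.002), and each of the 3 FeSO4/DEX mice lay above the NaCl/DEX maximum of 3048. Ern1 had 993.7, 1146 and 1119 normalized counts in FeSO4/DEX mice, all below the NaCl/DEX mice, with an LFC of -0.75 (SE 0.15, FDR 0.0012). Edem1 had 3392, 3124 and 3773, again below all NaCl/DEX mice, with an LFC of -0.68 (SE 0.13, FDR 0.00093). These 3 calls held with every mouse left out in turn and with library size alone.

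The other 7 genes were not called in this comparison. Herpud1 had an LFC of -0.22 (SE 0.12, FDR 0.15), and -0.42 (FDR 0.016) with library size alone. Sdf2l1, with 324.8, 330.3 and 349.6 normalized counts in FeSO4/DEX and 377.8, 597 and 300 in NaCl/DEX mice, had an LFC of -0.35 (SE 0.2, FDR 0.18), and passed at -0.55 without NaCl/DEX mouse 3 (FDR 0.03) or with library size alone (FDR 0.046). Among the lists, to be set beside the same 22.4% and 20.9%, 7 of 14 PERK arm genes were higher and 1 lower, or 2 lower without NaCl/DEX mouse 2 or FeSO4/PBS mouse 1. Further, 1 of 22 genes of translocation and early secretion was higher (Kdelr2, LFC 1.87, FDR 1.8e-07) and 9 lower, or 5 lower without NaCl/DEX mouse 2. The 19 chaperones had 3 higher and 3 lower, or 6 lower without FeSO4/PBS mouse 1, and the 17 ERAD genes had 3 higher and 5 lower, or 1 higher and 3 lower without NaCl/DEX mouse 3 or FeSO4/DEX mouse 2, and 1 higher without FeSO4/DEX mouse 3.

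Creld2 and Manf varied most among the 10 genes between mice of 1 group. The within-group SD on the log2 scale was 0.48 for Creld2 and 0.36 for Manf, against a median of 0.24 over all tested genes, which put Creld2 at percentile 82 and Manf at percentile 70.2. Atf6 and Herpud1, each with an SD of 0.13, lay at percentiles 13.9 and 14.9, and Pdia6 with 0.15 at percentile 20.4. Of the 19 other chaperones, 4 had an SD above the median of all genes, with Hyou1 at 0.37, and 15 had one below it, down to 0.08 for P4hb (percentile 2.1). In FeSO4/DEX mice Creld2 had 1101, 462.2 and 739.6 normalized counts, Manf 2570, 1401 and 2027, and Pdia4 3186, 2159 and 3050. Mouse 2 of this group was thus lowest and mouse 1 highest in all 3 genes, and Hspa5 followed the same order with 32710, 18720 and 25150.

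Among NaCl/DEX mice, mouse 2 had the highest normalized count of Creld2, Manf, Pdia4 (4066), Pdia6 (5777) and Sdf2l1 (597), and mouse 3 had the lowest of Creld2, Manf, Pdia4 (2870) and Sdf2l1. The number of the 19 other chaperones above their group mean was 9, 15 and 4 in NaCl/DEX mice 1, 2 and 3, and 12, 5 and 15 in the FeSO4/DEX mice. In NaCl/PBS mice it was 11, 16 and 4, and in FeSO4/PBS mice 7, 12 and 11. Of the 10 genes, 7, 6 and 1 lay above their group mean in NaCl/DEX mice 1, 2 and 3, and 6, 1 and 8 in the FeSO4/DEX mice. In NaCl/PBS mice these were 7, 6 and 3, and in FeSO4/PBS mice 2, 4 and 9. Of all tested genes, 47.1% to 53.3% lay above their group mean in each mouse. FeSO4/DEX mouse 3 thus had more chaperones above the mean than mouse 1, which was highest in Creld2, Manf, Pdia4 and Hspa5. Creld2, the most variable of the 10 genes, was not called in any of the 4 comparisons or in the interaction.

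**Figure D4:**
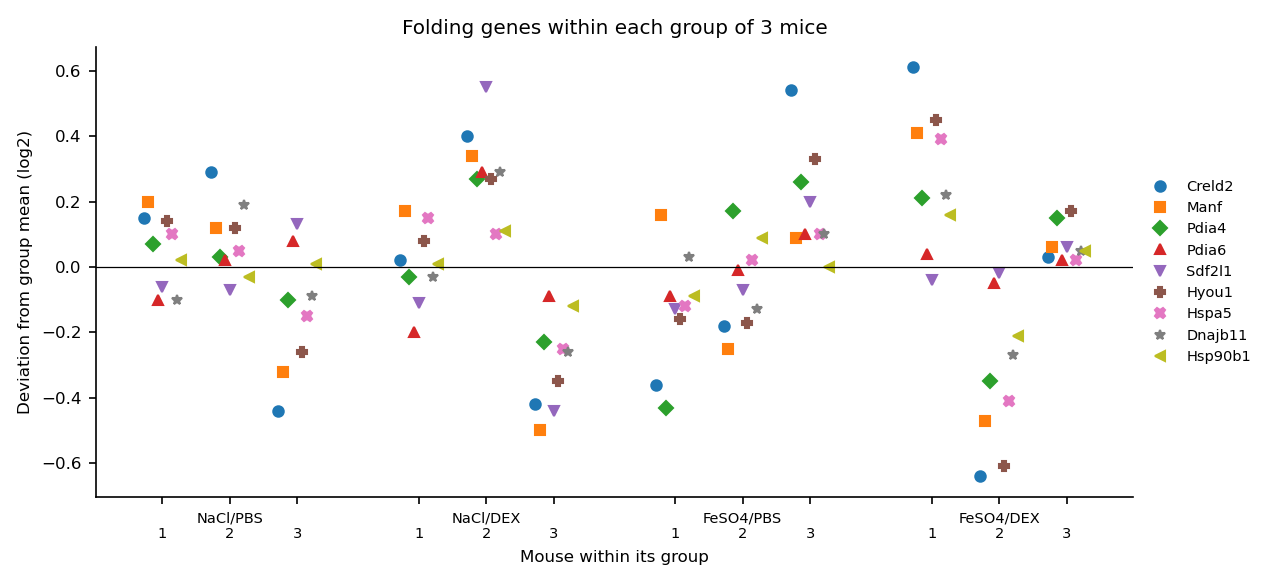
Deviation of log2 CPM from the mean of the group (vertical axis) for 5 of the 10 genes and for Hyou1, Hspa5, Dnajb11 and Hsp90b1 in each of 12 mice; the mouse numbers are names and have no order. The other 5 of the 10 genes are not shown and did not all share these sides. Hyou1 and Dnajb11 were the genes most similar to Creld2 and Manf in these same libraries. All 9 markers lie above 0 in NaCl/DEX mouse 2 and FeSO4/DEX mouse 3 and below 0 in NaCl/DEX mouse 3 and FeSO4/DEX mouse 2, FeSO4/DEX mouse 1 lies above 0 except for Sdf2l1 (-0.04), FeSO4/PBS mouse 3 lies above 0 except for Hsp90b1 at 0, and the other mice have markers on both sides.

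For each of the 10 genes, the genes with the most similar levels were found by Pearson's r of log2 CPM over the 12 libraries, as a description of libraries that share groups. Creld2 was nearest to the chaperone Hyou1 (r 0.907), and Manf to the BiP cofactor Dnajb11 (r 0.873). Sdf2l1 was nearest to the complement gene C6 (r 0.91), and Pdia6 to the complement gene C8b (r 0.885), with Sdf2l1 next (r 0.836). Among the 50 genes nearest to Manf, 8 were on the pathway lists, and 7 of the 50 nearest to Creld2 were, while 103 of the 13857 tested genes (0.743%) were on them. Atf6 and Pdia6 had 3 each, and Herpud1 (the ubiquitin-conjugating enzyme Ube2g2) and Sdf2l1 (Pdia6) had 1 each. The 10 genes were counted among the lists here.

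Xbp1, Ern1, Pdia4 and Edem1 had 0 genes of the lists among their 50 nearest, where the share of all tested genes gives 0.37 of 50. A value of 0 thus lay near that share. Xbp1 was nearest to 2310022B05Rik (r 0.962), Ddx19b (r 0.958) and Ints7 (r 0.951), Ern1 to Zfp236 (r 0.978), Mpzl2 (r 0.973) and Rmc1 (r 0.968), and Edem1 to Narf (r 0.96), Dgat2 (r 0.959) and Bnip2 (r 0.949). Pdia4 was nearest to Fut8 (r 0.951), Sult3a1 (r 0.948) and Gid4 (r 0.942), Herpud1 to Mpzl3 (r 0.956), Paxip1 (r 0.956) and Dclre1b (r 0.946), and Atf6 to Kif5b (r 0.955), Mapre1 (r 0.946) and Abce1 (r 0.938). Xbp1 and Ern1 themselves ran in opposite order over the 4 groups. Mean Xbp1 was 2844 normalized counts in NaCl/DEX, 4343 in NaCl/PBS, 5686 in FeSO4/DEX and 7855 in FeSO4/PBS mice, and mean Ern1 was 1827, 1292, 1086 and 1030 in the same order, although the last 2 Ern1 means lay within their spread of each other.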

How the data were processed

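Per the labels and the paper's methods, total RNA of 12 mouse livers was made into stranded mRNA libraries and sequenced as single-end reads. After a FastQC check, the authors aligned the reads to mm39 by STAR 2.7.10b and deposited whole-number read counts per Ensembl gene without normalization. Which strand column of STAR was deposited is not given in the sources used here. The submitters' notes also name DESeq2, whose results were not used.

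Symbols, positions and sequences came from GENCODE vM39 and GRCm39, which is mm39, and 54749 of 55414 IDs had a symbol. The authors used an earlier GENCODE release, so exons may differ. All 12 libraries entered 1 edgeR quasi-likelihood model (R 4.3.3, edgeR 4.0.16, limma 3.58.1) with a mean per group. edgeR's filter on low counts kept 13857 genes, and TMM factors lay between 0.871 and 1.16. The biological coefficient of variation was 0.169, with 8 residual and 5.93 prior degrees of freedom. Alternatives were DESeq2 1.42.0, its size factors, library size alone, no filter, at least 10 counts in every library, a replicate block, the libraries of a comparison alone, an LFC beyond 1, an FDR of 0.01 or less, and each mouse left out. The list counts under library size alone and with mice left out were added after the data had been seen. Scripts were tested on simulated data.

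The 10 genes and all lists were chosen with earlier results of these data known. Beyond the 10 genes, the text names Hspa5, Hsp90b1, Dnajb9, Eif2ak3, Atf4 and Ddit3, up to 3 higher and 3 lower called genes per list for FeSO4 and for DEX without FeSO4, and the 3 genes most like each of the 10. Mbtps2, the uncalled genes of the PERK arm, the list genes with a called interaction, Kdelr2 after FeSO4 and DEX, and the Ube2g2 levels were chosen with their values in view. Precision is limited by 3 mice per group more than by depth, as each of the 10 genes had at least 243 counts in every library.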

Additional observations from a re-analysis of the deposited data

Results flagged for a closer look

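Of the 10 genes, Herpud1 had a response to DEX that differed between mice given FeSO4 and mice given NaCl by the interaction test (LFC -0.77, SE 0.17, edgeR FDR 0.016). In NaCl mice the LFC by DEX was 1.09, from a mean of 6754 to 14400 normalized counts, and in FeSO4 mice it was 0.33, from a mean of 9837 to 12330. Markers of Kupffer cells were lower and those of neutrophils higher in FeSO4 mice, and their part in the difference was not tested.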

How the results depend on the processing

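Over 940 comparisons of an LFC of the 10 genes with an alternative, 898 kept their direction where called and their side of the threshold, 17 lost a call, 25 gained a call and 0 called values changed sign. After FeSO4, the 3 higher genes became 1 with library size alone, 5 without a filter on low counts and 0 beyond an LFC of 1, and the 1 lower gene became 5, 1 and 0, and 0 at an FDR of 0.01 or less. After DEX in NaCl mice, the 3 higher genes became 1 with library size alone, beyond an LFC of 1 or at an FDR of 0.01 or less, and the 0 lower genes became 1 (Xbp1) with library size alone, without a filter or in the libraries of the comparison alone. In FeSO4/DEX against NaCl/DEX mice, the 1 higher gene became 0 beyond an LFC of 1, and the 2 lower genes became 4 with library size alone and 0 beyond an LFC of 1. The 1 gene with a different DEX response became 2 without a filter, and 0 beyond an LFC of 1 or at an FDR of 0.01 or less. Stricter thresholds can only remove genes, and the cause of the other changes was not tested.

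With each mouse left out in turn, the higher genes after FeSO4 numbered 3 to 4 (4 without NaCl/DEX mouse 3, FeSO4/PBS mouse 2 or FeSO4/DEX mouse 1 or 2), the lower genes numbered 0 to 2 (0 without NaCl/PBS mouse 1 or 2 or FeSO4/PBS mouse 1, 2 without FeSO4/PBS mouse 2), the higher genes after DEX in NaCl mice 1 to 3 (1 without NaCl/PBS mouse 2 or 3 or NaCl/DEX mouse 1 or 3), the lower genes 0 to 1 (1 without FeSO4/PBS mouse 1 or 2), the lower genes in FeSO4/DEX against NaCl/DEX mice 2 to 3 (3 without NaCl/DEX mouse 3), and the genes with a different DEX response 1 to 2 (2 without FeSO4/PBS mouse 1). The labels do not say whether mouse numbers pair samples. Deviations of same-numbered mice had r of -0.09 to 0.13 and those of other mice -0.15 to 0.11. Between NaCl/PBS and NaCl/DEX mice, same numbers had r of 0.13, 0.11 and 0.05 and other numbers -0.15 to 0.03. Such ranges cannot exclude a pairing, and the replicate block is a check only. With the replicate block, Manf passed after FeSO4 (LFC 0.56, FDR 0.046), which made 4 higher genes, and no other call of the 10 genes changed. Calls over all genes after FeSO4 numbered 7268 with the block and 7553 without it. Scaling sets the balance of rises and falls, and the counts give no measure of total RNA. Protein, splicing of Xbp1, cleavage of ATF6 and phosphorylation of eIF2α by PERK were not measured here.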

Other observations

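FeSO4/PBS mouse 1, which had the highest Xbp1 and the lowest Ern1 and Pdia4 of all 12 mice, also had the highest Atf4, with 5503 normalized counts against 2684 and 3350 in the other FeSO4/PBS mice. Its Ddit3 stood at 80.64, against 38.66 and 35.71 in them. Hspa5 and Dnajb9 did not follow, with 24190 and 1985 normalized counts in this mouse, the lowest values of the group for each. Ube2g2 was higher in the other 3 groups than in NaCl/PBS mice, as Herpud1 was. Its normalized counts were 384.8 to 440.1 in NaCl/PBS, 1221 to 1392 in NaCl/DEX, 840.3 to 1002 in FeSO4/PBS and 852.3 to 950.2 in FeSO4/DEX mice.

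Plasma cells are rich in ER, and markers of B and plasma cells summed to 5.95 to 13.5 CPM in NaCl/PBS, 5.2 to 7.78 CPM in NaCl/DEX, 8.37 to 10.2 CPM in FeSO4/PBS and 9.12 to 13.8 CPM in FeSO4/DEX mice, with the plasma cell receptor gene Tnfrsf17 at 0 in every library. Of the 7 pancreatic acinar markers, Prss2, Cpa1, Pnlip, Amy2a5 and Ctrb1 had 0 counts in all 12 libraries, and the list summed to at most 0.855 CPM. Endothelial markers summed to 190 to 356 CPM and stellate markers to 189 to 304 CPM over all libraries, and those of T and NK cells to 2.13 to 5.49 CPM. The endothelial and stellate sums hide opposite changes of single genes. In FeSO4/PBS against NaCl/PBS mice, each of these 2 lists had 2 of 6 genes called higher and 2 lower, beside 27.2% and 27.3% of all tested genes.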
